A study of Mus musculus with 48 samples.

Results

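The transcripts described here are those of the lipoxygenases and leukotriene receptors on a mouse inflammation panel. They were chosen by name: Alox5, Alox12 and Alox15 encode lipoxygenases, Ltb4r1 and Ltb4r2 encode receptors for leukotriene B4, and Cysltr1 and Cysltr2 encode receptors for the cysteinyl leukotrienes. All 7 have a probe among the 248 endogenous genes measured, and 6 of the 7 passed the filter of over 20 counts in at least 12 samples. Ltb4r2 did not pass and is given by its values.

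Lipoxygenases add oxygen to polyunsaturated fatty acids such as arachidonic acid. The product of Alox5, 5-lipoxygenase, makes leukotriene A4, from which leukotriene B4 and the cysteinyl leukotrienes are formed, and it is found mainly in leukocytes. The products of Alox12 and Alox15 are the platelet-type 12-lipoxygenase and the leukocyte-type 12/15-lipoxygenase. Ltb4r1 encodes BLT1, the high-affinity receptor that draws neutrophils and other leukocytes toward leukotriene B4. Ltb4r2 encodes the lower-affinity BLT2. CysLT1 and CysLT2, the products of Cysltr1 and Cysltr2, bind the cysteinyl leukotrienes known from smooth muscle contraction and vascular leak.

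The RNA came from knees of male mice of the C57BL/6 strain, given as 3 months old in the labels. Synovial tissue was combined in equal mass with articular cartilage and the bone beneath it, and there were 12 samples in each of 4 groups. In 3 of the groups the knees had been loaded by compression as a model of osteoarthritis after trauma. Loading began in mice 8 weeks old and ran for 4 weeks, with 5 sessions a week of 500 cycles, each at a force of 9 N. Loaded joints were given nanoparticles bearing an antibody to collagen II and a small interfering RNA against Mmp13, a collagen-degrading metalloproteinase (siMMP13), or the same particles with a negative control RNA (siNEG), or were left untreated; healthy joints were the fourth group. No label ties the samples to separate animals; p-values therefore reflect only how far samples of a group spread, in part perhaps technically. Loading is represented by 1 model and 1 time, in males of a single strain.

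Mmp13 had no probe among those analysed here, so its knockdown was not measured. None of the 4 cartilage, 5 synovium and fibroblast, 3 bone or 7 mast cell markers listed had a probe here, so the labelled tissue could not be checked by them. Total gene counts per sample ran from 36415 to 302377, and the negative control probes averaged 5.63 to 8.47 counts per group. Values below are normalized counts, that is, counts divided by a scale factor from the geometric mean of 6 reference genes. In 4 libraries, siMMP13 replicates 7, 8 and 11 and healthy replicate 2, the profile of those 6 genes stood apart from the other samples. In the 3 siMMP13 libraries Tubb5 was 1.95, 1.19 and 1.57 log2 units above its usual place in the profile and Gusb was at -1.70, -1.11 and -1.09. Results that rest on these libraries are given with and without them, a comparison chosen after the data were seen.

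The promoters of Alox5 and Ltb4r1 are shown first, because their levels went closely together and both were lower in the loaded joints. Alox12 and Alox15 went together about as closely, but Alox15 has no entry in the promoter table. The 250 bases before the start of each gene were taken from RefSeq on GRCm38.p6, at chr6:116461179-116461428 (minus strand) for Alox5 and chr14:55765712-55765961 (plus strand) for Ltb4r1. Capitals mark the GC box letters GGGCGG and the PU.1 core letters GAGGAA, on either strand.

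Alox5: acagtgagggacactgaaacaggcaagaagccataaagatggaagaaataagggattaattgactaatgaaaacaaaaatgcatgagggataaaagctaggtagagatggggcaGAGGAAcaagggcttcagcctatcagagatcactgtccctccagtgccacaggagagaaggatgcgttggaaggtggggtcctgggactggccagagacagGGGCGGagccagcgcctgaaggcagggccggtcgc

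Ltb4r1: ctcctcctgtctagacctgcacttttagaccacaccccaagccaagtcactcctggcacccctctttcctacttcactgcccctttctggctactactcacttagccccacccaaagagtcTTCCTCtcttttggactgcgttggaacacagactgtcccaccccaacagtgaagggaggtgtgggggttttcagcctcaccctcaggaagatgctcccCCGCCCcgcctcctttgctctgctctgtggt

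In both windows the GC box lay close to the start, with its first base 35 bases before it in Alox5 and 31 in Ltb4r1. The PU.1 core began 136 bases before the start in Alox5 and 129 in Ltb4r1. Of 32851 RefSeq promoter windows of this length, 32.7% held GGGCGG and 23.3% held GAGGAA on either strand. Of the other members, Alox12 and Cysltr2 also had a window in the table: Alox12 held 2 GC boxes and 1 PU.1 core, and Cysltr2 neither. The AP-1 letters TGANTCA, present in 6.75% of all windows, and the TATA letters TATAAA, present in 12.4%, were in none of the 4. No match overlapped another. The motifs were picked after the sequences had been read, and a match describes letters only. In the RefSeq gene order Ltb4r1 and Ltb4r2 are direct neighbours, and 4 other genes begin between Alox12 and Alox15.

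Loading was accompanied by a higher level of 1 receptor, Cysltr1, and by lower levels of Alox15, Alox5 and Ltb4r1. In loaded untreated against healthy joints 4 of the 6 members tested were called at an adjusted p under 0.05, 1 higher and 3 lower. Of all 196 genes tested 46.4% were called, 31.6% higher and 14.8% lower. With 6 members, the total called was not far from the background, while the share called lower was above it. Whether either share differs from the background was not tested. In siMMP13 against healthy joints 3 of 6 were called, 1 higher and 2 lower, where 49.5% of all genes were (34.7% higher and 14.8% lower). In siNEG against healthy joints 4 of 6 were called, 1 higher and 3 lower, where 50% of all genes were (37.8% higher and 12.2% lower). The median log2 fold change of the 6 members was -0.36 in siMMP13, -0.46 in siNEG and -0.32 in untreated joints against healthy, beside 0.14, 0.20 and 0.15 over all genes tested. All these comparisons share the same 12 healthy samples, so they are not independent of one another. Without the 4 divergent libraries 6 members were called in siMMP13, 5 in siNEG and 4 in untreated against healthy joints, where 61.7%, 60.2% and 56.1% of all genes were called in the same fit.

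The balance of higher and lower calls over all genes depended on the scaling. With scaling by the trimmed mean of M values (TMM), 47 genes were higher and 51 lower in untreated against healthy joints, in place of 62 and 29. In siMMP13 against healthy joints the split was 54 higher and 52 lower, in place of 68 and 29, and in siNEG against healthy joints 51 and 62, in place of 74 and 24. TMM moved the median log2 fold change of all genes by -0.15 in siMMP13, -0.25 in siNEG and -0.20 in untreated against healthy joints. The directions of Cysltr1, Alox5, Alox15 and Ltb4r1 against healthy joints were the same under TMM, DESeq2 size factors and total-count scaling. No member separated any loaded group from the healthy group without overlap, where 0.51%, 3.06% and 2.55% of all genes did so in siMMP13, siNEG and untreated joints.

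**Figure D1:**
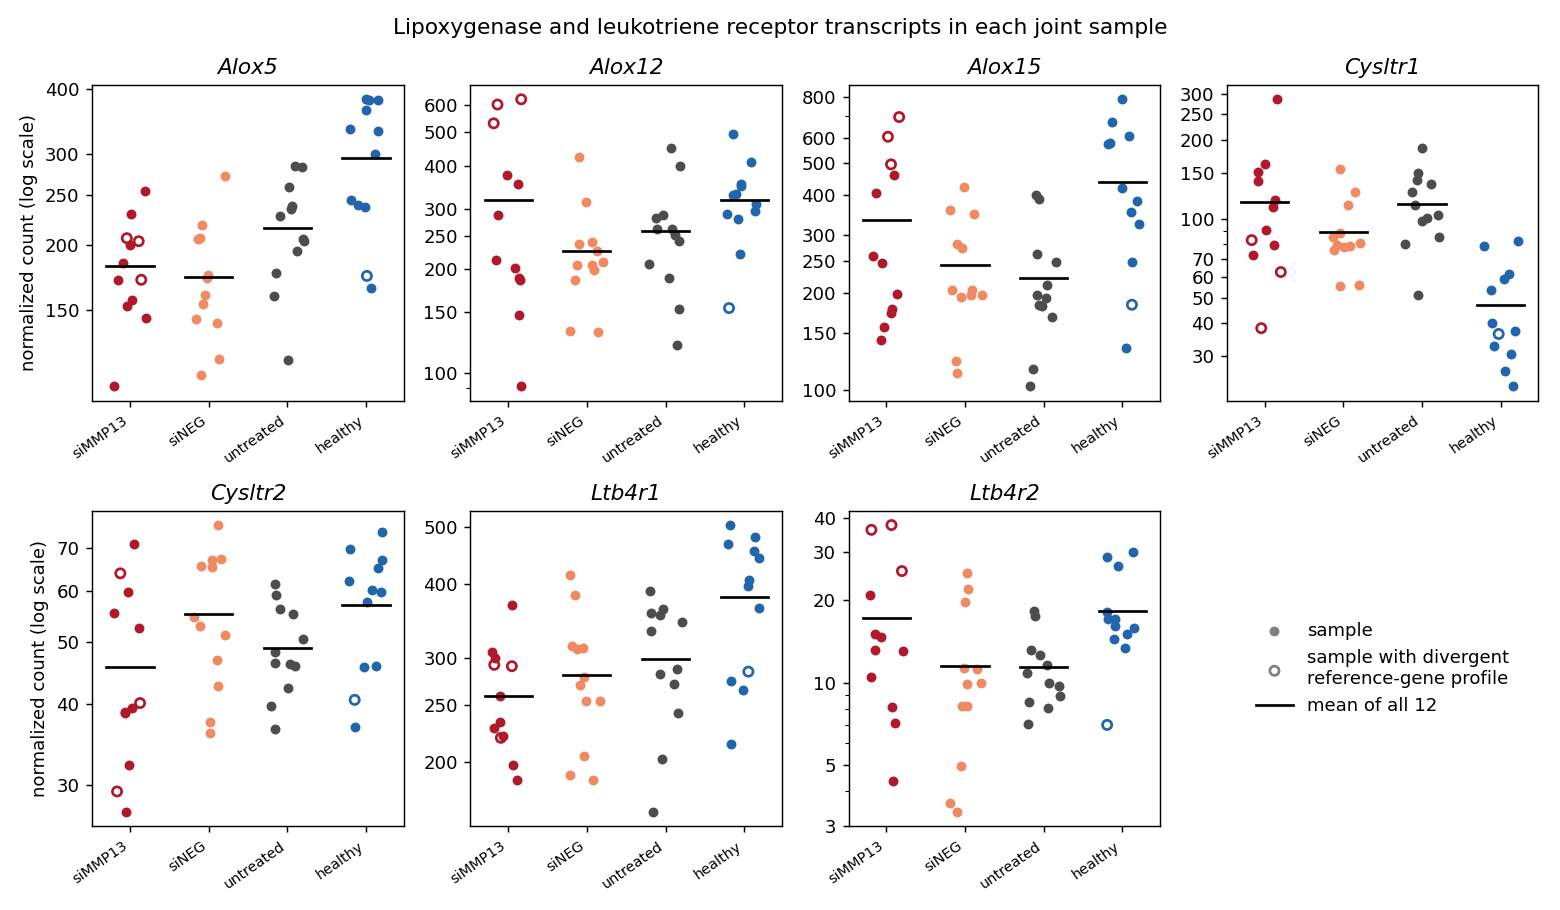
Normalized counts (log axis, own scale in each panel) of the 7 members in every sample, with the group mean as a bar; open circles are the 4 libraries with a divergent reference-gene profile. Cysltr1 is the member with healthy samples lowest, and the 3 open siMMP13 circles are the highest of their group for Alox12, Alox15 and Ltb4r2.

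Alox5, the gene of the enzyme that begins leukotriene synthesis, ran from 107 to 254 normalized counts with a median of 178 in siMMP13 joints. It ran from 112 to 272 with a median of 166 in siNEG joints, and from 120.0 to 284 with a median of 216 in untreated loaded joints. In healthy joints it ran from 165 to 382 with a median of 316. None of the 36 loaded samples reached the healthy median, although the groups overlapped because some healthy samples were low. Group means were 182 ± 40.03 in siMMP13, 174 ± 45.6 in siNEG, 215 ± 49.1 in untreated and 295 ± 80.2 in healthy joints (SD, n = 12 each).

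Alox5 fell in each of the loaded groups relative to healthy joints. By edgeR's quasi-likelihood test with Benjamini-Hochberg adjustment, the log2 fold change was -0.70 ± 0.16 (SE) in siMMP13 joints (adjusted p = 0.000138) and -0.76 ± 0.16 in siNEG joints (adjusted p = 4.77e-05). In untreated joints it was -0.45 ± 0.16 (adjusted p = 0.0115). These calls held in all 19 alternatives and with any 1 sample left out, with adjusted p reaching at most 0.0458. In such bulk tissue fewer cells that express a gene and less of its RNA per cell cannot be told apart.

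Ltb4r1, the gene of the leukotriene B4 receptor BLT1, followed a similar order of groups. It ran from 186 to 369 normalized counts with a median of 246 in siMMP13 joints, from 186 to 414 with a median of 274 in siNEG joints, and from 164 to 389 with a median of 309.9 in untreated loaded joints. Its healthy values ran from 215 to 504 with a median of 402. Every siMMP13 and untreated sample and 11 of 12 siNEG samples lay below the healthy median, while the lowest healthy samples lay within the loaded range. Means were 258 ± 53.9 in siMMP13, 281 ± 71.5 in siNEG, 299 ± 70.2 in untreated and 380.0 ± 98.0 in healthy joints.

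The log2 fold change of Ltb4r1 against healthy joints was -0.56 ± 0.14 in siMMP13 joints (adjusted p = 0.00129) and -0.44 ± 0.16 in siNEG joints (adjusted p = 0.0114). In untreated joints it was -0.35 ± 0.16, with an adjusted p of 0.0469 that sat close to the threshold. That last call was lost in 8 of 19 alternatives and on leaving out any of 14 of the 24 samples, with adjusted p up to 0.146 when Gusb was left out of the reference genes. The siNEG call was lost with log2 Myl2 as a covariate (-0.35, adjusted p = 0.0579).

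Ltb4r2, the gene of the second leukotriene B4 receptor BLT2, was near background. It ran from 4.38 to 37.6 normalized counts with a median of 13.9 in siMMP13 joints, from 3.37 to 25.1 with a median of 9.92 in siNEG joints, and from 7.06 to 18.3 with a median of 10.4 in untreated joints. In healthy joints it ran from 7.003 to 30.03 with a median of 16.5. Only 3, 2 and 4 of 12 siMMP13, siNEG and untreated samples, and 5 of 12 healthy samples, exceeded the mean of their own negative controls plus 2 SD. No difference between groups was called: with no count filter, edgeR's adjusted p over all 6 comparisons was 0.0579 or more. Against healthy joints the log2 fold change was -0.65 in untreated (adjusted p = 0.0579) and -0.65 in siNEG joints (adjusted p = 0.0688), both just over the threshold.

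Alox15, the gene of the leukocyte-type 12/15-lipoxygenase, varied widely between samples. It ran from 142 to 694 normalized counts with a median of 253 in siMMP13 joints, from 113 to 424 with a median of 204 in siNEG joints, and from 103 to 399.6 with a median of 195 in untreated loaded joints. Healthy samples held 135 to 787 with a median of 401. No untreated sample and 1 siNEG sample exceeded the healthy median, against 5 siMMP13 samples, and all loaded groups overlapped the lower healthy samples. Means were 334 ± 191 in siMMP13, 243 ± 95.7 in siNEG, 221 ± 92.6 in untreated and 439 ± 204 in healthy joints.

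Alox15 fell in untreated joints, with a log2 fold change of -0.99 ± 0.28 against healthy (adjusted p = 0.00312), and in siNEG joints, with -0.85 ± 0.28 (adjusted p = 0.00904). In siMMP13 joints the value was -0.40 ± 0.32 with an adjusted p of 0.226. The 3 siMMP13 libraries with a divergent reference-gene profile, at 694, 496 and 604 normalized counts, were the highest of their group. Without the 4 divergent libraries the siMMP13 value was -0.91 ± 0.30 (adjusted p = 0.00426, 9 against 11 samples). The siNEG call was lost with log2 Myl2 as a covariate (-0.44, adjusted p = 0.189). Myl2 encodes a muscle myosin light chain. Its median was 307 normalized counts in siMMP13, 285 in siNEG, 42.7 in untreated and 52.9 in healthy joints. Its ranges were 23.7 to 2362, 69.1 to 983, 16.4 to 558 and 11.5 to 846 in the same order. Against healthy joints it was called higher in siMMP13 (adjusted p = 0.0441) but not in siNEG joints (adjusted p = 0.108). Of the other genes with a probe that had been listed as muscle genes, which was not checked, Fxyd2 was called lower in siMMP13 and untreated joints. Its log2 fold changes there were -0.97 (adjusted p = 0.00397) and -0.70 (adjusted p = 0.0379). Ppp1r12b was not called in any comparison.

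Alox12, the gene of the platelet-type lipoxygenase, was not called in any comparison of the main fit of all samples. It ran from 91.3 to 624 normalized counts with a median of 249.6 in siMMP13 joints, from 131 to 425 with a median of 208 in siNEG joints, and from 120.0 to 449 with a median of 256 in untreated loaded joints. In healthy joints it ran from 154 to 493 with a median of 319, and all groups overlapped. Means were 317 ± 182 in siMMP13, 226 ± 79.1 in siNEG, 259 ± 93.2 in untreated and 318 ± 85.7 in healthy joints.

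Against healthy joints the log2 fold change of Alox12 was -0.0095 ± 0.28 in siMMP13 joints (adjusted p = 0.973), -0.49 ± 0.18 in siNEG joints (adjusted p = 0.0773) and -0.29 ± 0.20 in untreated joints (adjusted p = 0.3). The same 3 divergent siMMP13 libraries were again the highest of their group, at 602, 531 and 624 normalized counts. Without the 4 divergent libraries Alox12 was called lower in siMMP13 joints, at -0.55 ± 0.23 (adjusted p = 0.0249), and in siNEG joints, at -0.56 ± 0.16 (adjusted p = 0.0163). The siNEG difference passed the threshold in 8 of 19 alternatives, TMM scaling among them (-0.70, adjusted p = 0.03).

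Cysltr1, the gene of the cysteinyl leukotriene receptor CysLT1, was the member that went the other way. It ran from 38.3 to 286 normalized counts with a median of 101 in siMMP13 joints, from 55.4 to 155 with a median of 80.2 in siNEG joints, and from 51.3 to 186 with a median of 108 in untreated loaded joints. The healthy range was 23.0 to 82.4 with a median of 38.8. Of the loaded samples, 8 siMMP13, 5 siNEG and 10 untreated samples lay above the highest healthy one, and only 1 sample, of the siMMP13 group, lay below the healthy median. Means were 116 ± 65.1 in siMMP13, 89.4 ± 28.7 in siNEG, 114 ± 36.0 in untreated and 46.9 ± 20.002 in healthy joints.

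Cysltr1 rose 2.47-fold in siMMP13 joints against healthy (log2 1.31 ± 0.27, adjusted p = 1.35e-05). It rose 1.88-fold in siNEG joints (log2 0.91 ± 0.21, adjusted p = 0.00139) and 2.40-fold in untreated joints (log2 1.27 ± 0.22, adjusted p = 2.42e-05). These calls held in every alternative and with any 1 sample left out. The divergent siMMP13 libraries were low for this gene, at 62.7, 38.3 and 83.0 normalized counts, and without the 4 divergent libraries the siMMP13 fold was 2.78.

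Cysltr2, the gene of the second cysteinyl leukotriene receptor CysLT2, was not called in any comparison of the main fit of all samples. It ran from 27.2 to 70.8 normalized counts with a median of 39.8 in siMMP13 joints, from 36.0 to 75.9 with a median of 53.8 in siNEG joints, and from 36.6 to 61.5 with a median of 47.3 in untreated loaded joints. In healthy joints it ran from 36.9 to 73.9 with a median of 59.9, and the groups overlapped widely. Means were 45.7 ± 14.3 in siMMP13, 55.2 ± 13.0 in siNEG, 49.0 ± 7.75 in untreated and 57.0 ± 12.002 in healthy joints.

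The log2 fold change of Cysltr2 against healthy joints was -0.33 ± 0.16 in siMMP13 (adjusted p = 0.0509), -0.06 ± 0.14 in siNEG (adjusted p = 0.7) and -0.22 ± 0.11 in untreated joints (adjusted p = 0.182). The siMMP13 difference passed the threshold in 12 of 19 alternatives and in 9 of 24 fits with a sample left out. The untreated difference passed it under TMM (-0.41, adjusted p = 0.014), DESeq2 size factors (-0.40, adjusted p = 0.0169) and total-count scaling (-0.35, adjusted p = 0.0488).

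**Figure D2:**
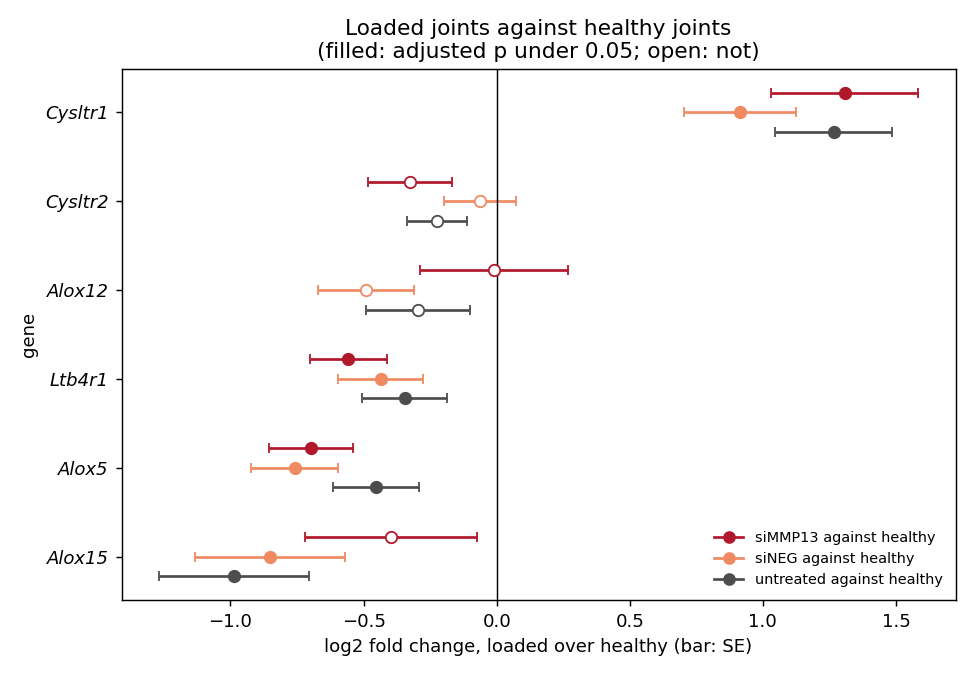
Log2 fold change (x axis) of the 6 members tested (y axis) in each loaded group over healthy joints, with SE bars and 12 samples a group; filled points have an adjusted p under 0.05. Cysltr1 lies between 0.91 and 1.31, Alox5 between -0.76 and -0.45 and Ltb4r1 between -0.56 and -0.35, all filled, and the comparisons share the healthy samples.

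**Figure D3:**
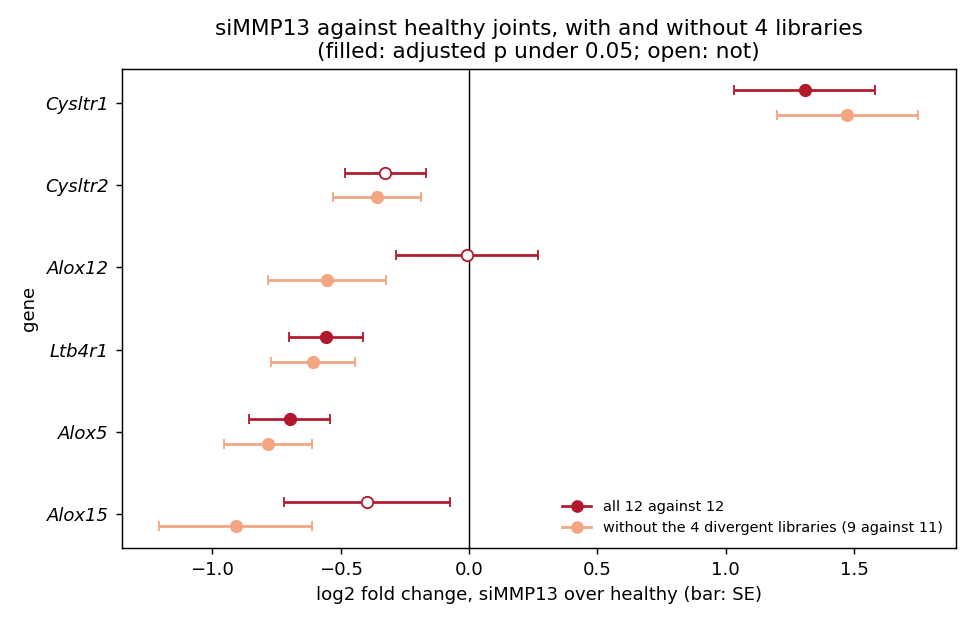
Log2 fold change (x axis, SE bars) of the 6 members in siMMP13 over healthy joints, with all 12 against 12 samples and without the 4 libraries with a divergent reference-gene profile (9 against 11). Alox12 lies at -0.0095 with all samples and -0.55 without those libraries, Alox15 at -0.40 and -0.91, and all 6 points are filled (adjusted p under 0.05) without them.

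The delivered RNA was compared within loaded joints, where siMMP13 against siNEG bears on the Mmp13 sequence. No member was called by edgeR's quasi-likelihood test in siMMP13 against siNEG joints, where 6.12% of all genes were (1.53% higher and 4.59% lower), and none was called by the Wald test of DESeq2. At an unadjusted p under 0.05 there was 1, Alox12, with a log2 fold change of 0.48 ± 0.28 (adjusted p = 0.234). The 95% interval of the difference in mean log2 level was -0.25 to 0.92 for Alox12, -0.24 to 0.95 for Alox15 and -0.26 to 0.77 for Cysltr1. It was -0.63 to 0.04 for Cysltr2, -0.39 to 0.18 for Ltb4r1 and -0.22 to 0.37 for Alox5. These intervals leave room for differences in either direction. The highest Alox12 and Alox15 values of the siMMP13 group came from the divergent libraries, and without the 4 of them the siMMP13 over siNEG log2 fold change was 0.0043 for Alox12 (adjusted p = 0.996) and 0.02 for Alox15 (adjusted p = 0.988). For Cysltr1 it was larger without them, at 0.60 (adjusted p = 0.131) beside 0.39 with all samples (adjusted p = 0.307).

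In siMMP13 against untreated loaded joints no member was called by edgeR or by the Wald test of DESeq2, where 3.57% of all genes were called by edgeR (2.04% higher and 1.53% lower). Alox15 alone had an unadjusted p under 0.05, with a log2 fold change of 0.59 ± 0.29 (adjusted p = 0.23). Its difference in mean log2 level was 0.49, with a 95% interval of -0.10 to 1.09. The log2 fold change of Alox15 was 0.15 without the 4 divergent libraries (adjusted p = 0.822). With log2 Myl2 as a covariate Alox15 passed the threshold, at 0.88 (adjusted p = 0.0281), and no other member did. In siNEG against untreated loaded joints no member was called by edgeR or DESeq2, where 1.53% of all genes were called by edgeR (1.02% higher and 0.51% lower), and Alox5 alone had an unadjusted p under 0.05 (log2 -0.31 ± 0.15, adjusted p = 0.567). Between loaded groups no member and 0% of all genes tested were free of overlap.

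Ordered by their means, siNEG joints were lowest and healthy joints highest for Alox5 and Alox12. Untreated joints were lowest and healthy joints highest for Alox15, and siMMP13 joints were lowest and healthy joints highest for Ltb4r1 and Cysltr2. For Cysltr1 the order was healthy, siNEG, untreated and siMMP13. Within each of these orders, neighbours that were both loaded groups were not called different, which leaves room for differences in either direction. In the main fit of all samples, the healthy group and its neighbour differed for Alox5 (untreated), for Cysltr1 (siNEG) and, in the call close to the threshold that many alternatives lost, for Ltb4r1 (untreated). They were not called different for Alox12 and Alox15 (siMMP13) or Cysltr2 (siNEG). Without the 4 divergent libraries the mean of Alox12 was 227 ± 93.9 normalized counts in siMMP13 (n = 9), 226 ± 79.1 in siNEG, 259 ± 93.2 in untreated (n = 12 each) and 333 ± 71.8 in healthy joints (n = 11). Untreated joints then stood next to healthy joints and were not called different from them (-0.36, adjusted p = 0.114). For Alox15 siMMP13 joints remained next to healthy joints and were called lower, as given above.

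Most members varied together from sample to sample, some pairs more closely than others. These likenesses were computed on log2 levels after subtraction of each group's mean, over 48 samples that share RNA and scaling within each sample, and are given as descriptions. Alox5 and Ltb4r1 had a Spearman correlation of 0.869 and a Pearson r of 0.844, or 0.818 without the 2 samples farthest out for Alox5. Within single groups their rank correlation was 0.867 in siMMP13, 0.804 in siNEG, 0.902 in untreated and 0.748 in healthy joints. Alox12 and Alox15 had a rank correlation of 0.864 (Pearson 0.864, or 0.861 without the 2 farthest samples), which was 0.781 without the 4 divergent libraries. Within groups it was 0.916 in siMMP13, 0.608 in siNEG, 0.881 in untreated and 0.846 in healthy joints. Pairs across these also went together. The rank correlation was 0.531 for Alox5 with Alox12, 0.581 for Alox5 with Alox15, 0.489 for Alox12 with Ltb4r1 and 0.588 for Alox15 with Ltb4r1, and 0.672 to 0.736 for these pairs under TMM scaling. In siNEG joints Alox15 with Ltb4r1 had a rank correlation of 0.874, above both pairs named first, so they do not form separate sets there.

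Cysltr1 had a negative rank correlation with Alox12 in every group. It was -0.568 over all samples (Pearson -0.614, or -0.550 without the 2 farthest samples), and -0.678 in siMMP13, -0.455 in siNEG, -0.937 in untreated and -0.147 in healthy joints. Its rank correlation with Alox15 was -0.522 over all samples. With Cysltr2, the other receptor of its kind, rank correlation was -0.0872, or -0.45 under TMM scaling.

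**Figure D4:**
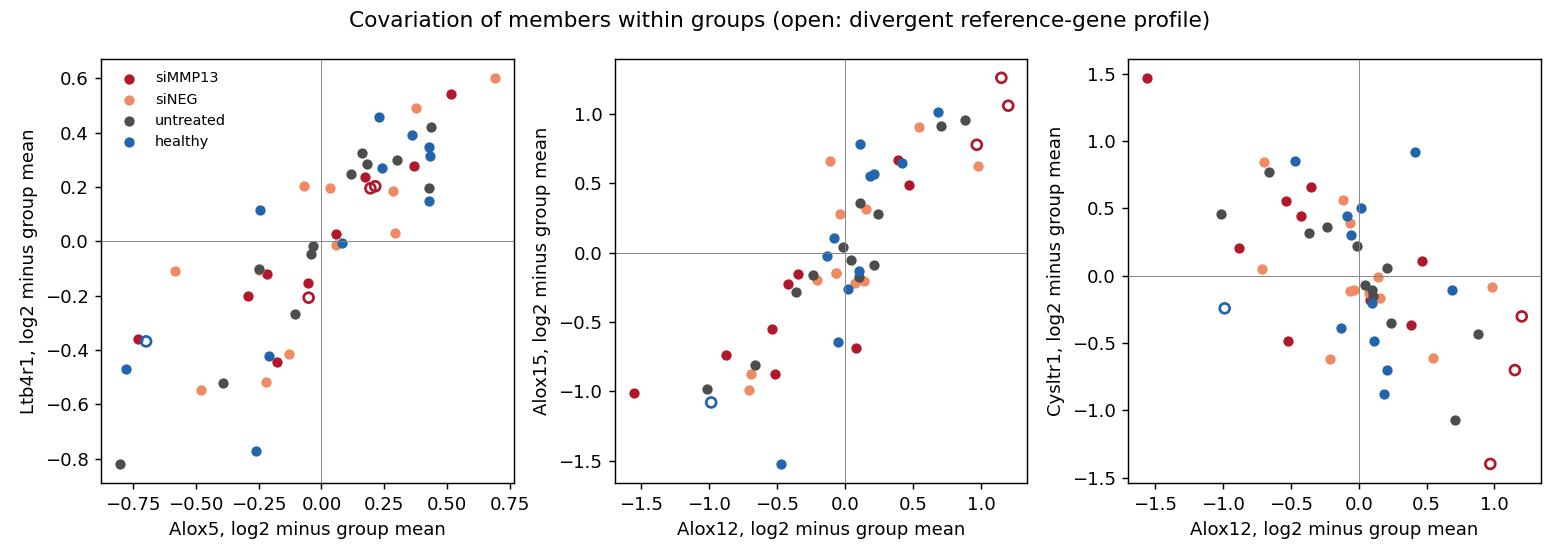
Log2 level minus the group mean of 1 member (x axis) against another (y axis) in 48 samples, coloured by group, open circles being the 4 divergent libraries. Alox5 with Ltb4r1 (Spearman correlation 0.869) and Alox12 with Alox15 (0.864) rise together, and Alox12 with Cysltr1 (-0.568) runs downward.

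Among the other 195 genes tested, those most like Alox5 were Ltb4r1, Il18rap, an interleukin-18 receptor subunit (rank correlation 0.839), and Cxcr4, a chemokine receptor (0.837). Those most like Ltb4r1 were Cxcr4 (0.884), Alox5 and Il18rap (0.855). Alox12 was most like Alox15, Ptgs1, the constitutive cyclooxygenase (0.841), and Tbxa2r, the thromboxane receptor (0.816). Alox15 was most like Alox12, Ptgs1 (0.824) and Tnfsf14, a TNF-family ligand (0.81). Cysltr1 was most like Tlr1, a bacterial lipopeptide receptor (0.854), and the interferon-induced genes Ifit2 (0.824) and Oas2 (0.782). Cysltr2 was less tightly tied to any gene, with Cxcr4 at 0.653, Prkcb, a protein kinase C, at 0.652 and Cxcr2, a chemokine receptor of neutrophils, at 0.636. Without the 4 divergent libraries Oas2 ranked 14 for Cysltr1, at 0.708, and for Cysltr2 Cxcr4 ranked 7 and Cxcr2 ranked 9. The other genes named ranked 4 or better without them. Under TMM scaling Oas2 ranked 8 and Cxcr2 ranked 16.

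Markers of leukocytes moved with some members. Of 10 granulocyte markers 3 had a probe (Ccr3, Cxcr2 and Mmp9), and 2 of these 3 were lower in each loaded group against healthy: Ccr3 and Cxcr2 in siMMP13 and siNEG joints, and Ccr3 and Mmp9 in untreated joints. Of all genes tested 14.8% were called lower in siMMP13, 12.2% in siNEG and 14.8% in untreated joints, and more under TMM scaling, as given above. The median log2 fold change of the 3 markers was -0.57, -0.40 and -0.51, beside 0.14, 0.20 and 0.15 over all genes. The summed level of the 3 markers ran from 1483 to 5515 normalized counts in siMMP13, 2396 to 5428 in siNEG, 2008 to 5145 in untreated and 2244 to 5994 in healthy joints. The sum itself was not correlated with the members. The mean log2 level of the 3 markers, after subtraction of each group's mean, was used. Its rank correlation was 0.753 with Ltb4r1, 0.724 with Alox5, 0.693 with Cysltr2, 0.672 with Alox15, 0.602 with Alox12 and -0.328 with Cysltr1. The defining granulocyte markers Csf3r, S100a8, S100a9, Epx, Prg2, Siglecf and Itgam had no probe here. The part of granulocyte number in the results for Alox5, Ltb4r1 and Alox15 was not tested. Of 7 lymphocyte markers 3 had a probe (Cd4, Ltb and Ccr7). Of these, 2 were lower in siMMP13, 2 in siNEG and 3 in untreated joints against healthy, where 14.8%, 12.2% and 14.8% of all genes were. The mean of their log2 levels, taken in the same way, had a rank correlation of 0.654 with Alox5. Their summed level ran from 265 to 643 normalized counts in siMMP13, 238 to 472 in siNEG, 249 to 451 in untreated and 316 to 685 in healthy joints, and their part was not tested either.

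Of 14 macrophage and monocyte markers 9 had a probe, and against healthy joints they did not go one way. There, 4 were higher and 4 lower in siMMP13, 3 and 5 in siNEG, and 4 and 4 in untreated joints. Of all genes 34.7% were higher and 14.8% lower in siMMP13, 37.8% and 12.2% in siNEG, and 31.6% and 14.8% in untreated joints. The 3 markers with the smallest p against healthy joints were C3ar1, Arg1 and Retnla in every loaded group. C3ar1, an anaphylatoxin receptor, rose (log2 1.99 in siMMP13, 1.49 in siNEG and 1.54 in untreated joints against healthy). Arg1 rose too (2.38, 2.49 and 2.32). Retnla fell (-1.88, -2.28 and -3.05), as did Mrc1, the mannose receptor (-0.39, -0.33 and -0.36). Levels were low for Arg1 in healthy joints (25.1 ± 24.8 normalized counts) and for Retnla in untreated joints (18.2 ± 12.7). The summed level of the 9 markers ran from 14175 to 28035 normalized counts in siMMP13, 13027 to 22933 in siNEG, 14125 to 23404 in untreated and 12936 to 29363 in healthy joints. Not this sum but the mean log2 level of the 9 markers, after subtraction of each group's mean, was correlated with the members. The rank correlation of that mean was 0.814 with Cysltr1 and -0.492 with Alox12. Between loaded groups, 2 of the 9 markers were called higher by edgeR in siMMP13 against siNEG joints and 0 lower. They were Tyrobp (0.75 ± 0.17, adjusted p = 0.00228) and Trem2 (0.67 ± 0.18, adjusted p = 0.028). Against untreated joints Tyrobp alone was called in siMMP13 joints (0.63 ± 0.16, adjusted p = 0.00974). The part of macrophage number in the result for Cysltr1 was not tested.

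Of the rest of the eicosanoid pathway, 10 of 15 genes listed had a probe and 9 were tested. Ptgs2, the inducible cyclooxygenase, and Ptgfr, the prostaglandin F receptor, rose in every loaded group. Ptgfr had log2 fold changes against healthy joints of 0.64 ± 0.18 in siMMP13 (adjusted p = 0.0019), 1.19 ± 0.20 in siNEG (adjusted p = 4.89e-07) and 0.89 ± 0.15 in untreated joints (adjusted p = 5.25e-05). Ptgs2 averaged 40.4 ± 23.9 normalized counts in siMMP13, 55.6 ± 35.2 in siNEG, 50.3 ± 24.9 in untreated and 9.15 ± 3.89 in healthy joints, where it was near background (adjusted p = 1.74e-06, 5.04e-08 and 2.11e-07 for siMMP13, siNEG and untreated against healthy). Ptgir, the prostacyclin receptor, fell in siNEG joints alone among the calls (-0.36 ± 0.14, adjusted p = 0.0279). Its values against healthy joints were -0.15 in siMMP13 (adjusted p = 0.373) and -0.31 in untreated joints (adjusted p = 0.0546, just over the threshold). Ptgir was not called between loaded groups. Its log2 fold change was 0.21 in siMMP13 against siNEG joints (adjusted p = 0.343) and -0.05 in siNEG against untreated joints (adjusted p = 0.979). In siMMP13 against siNEG joints Ptgfr fell, at -0.55 ± 0.20 (adjusted p = 0.0433), and no other gene of the list was called. This adjusted p sat close to the threshold. In that comparison 9 of all genes tested were called lower, against 2 with no count filter and 1 with DESeq2 size factors.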

How the data were processed

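Per the labels, RNA purified on columns was measured on the NanoString nCounter system with its mouse inflammation panel, which counts barcoded probes without amplification. The values the authors deposited are whole-number counts per probe, with control probes included and no normalization recorded in the sources used here. Samples were grouped by title and treatment label. Samples were scaled on 6 reference genes, by their geometric mean. Of 248 endogenous genes, 196 had over 20 counts in at least 12 samples. They were tested in 1 fit of all 48 samples with edgeR 4.0.16 (R 4.3.3), quasi-likelihood test, with Benjamini-Hochberg adjustment over the 196 and a threshold of 0.05. Standard errors come from log2(normalized count + 1). Of 95% intervals, those given are of differences in mean log2 level over samples.

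The members and gene lists were chosen with earlier results of these data known. The text names every member and the 3 genes most like each. Where genes of a list were called, it names up to 3 of them per comparison by smallest p. Mrc1 and some uncalled genes were named beyond this rule, and C3ar1 and Mrc1 were picked after their values were seen. Gene names and promoters come from RefSeq tables of GRCm38.p6, in which 247 gene symbols and 6 synonyms of 254 matched; the build behind the probes is not given in the sources used here, and promoter motifs were chosen after reading the sequences. The alternatives were DESeq2 1.42.0 (size factors, and its Wald test), limma 3.58.1 (with and without array weights), TMM and total-count scaling, leaving out each reference gene, other count filters, subtraction of negative controls, the 2 groups alone, log2 Myl2 as a covariate, the replicate number as a block, and leaving out each sample. Leaving out 4 divergent libraries was added after the data were seen. The replicate numbers did not pair the samples: over 72 same-number pairs the median correlation of deviations was 0.04. The edgeR script was tested on simulated data. Figures were drawn with matplotlib 3.10.9.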

Additional observations from a re-analysis of the deposited data

How the results depend on the processing

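Over 19 alternatives the number of members called against healthy joints ran from 3 to 6 in siMMP13, 2 to 5 in siNEG and 3 to 5 in untreated joints, while 38.3% to 65.8%, 39.5% to 65.8% and 37.5% to 71.4% of all genes tested were called. It was 0 in siMMP13 against siNEG and in siNEG against untreated joints, and 0 to 1 in siMMP13 against untreated joints. With 1 sample left out the counts were 3 to 4 in siMMP13, 4 to 5 in siNEG and 3 to 4 in untreated against healthy joints, and 0 between loaded groups. The count in siMMP13 against healthy joints became 6 with array weights in limma (65.8% of all genes) and 6 without the 4 divergent libraries (61.7%). With log2 Myl2 as a covariate it became 2 in siNEG against healthy joints (Alox5 and Cysltr1, with 52% of all genes) and 1 in siMMP13 against untreated joints (9.69%). No called value changed sign in the 684 alternative values or the 864 values with a sample left out.

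Values that changed sign were uncalled on both sides, and the cause was not tested. With the Myl2 covariate Alox12 became 0.21 in siMMP13 against healthy, 0.0554 in siNEG against untreated joints, and Cysltr2 became 0.0370 in siNEG against healthy joints. Alox12 in siMMP13 against healthy joints was 0.0804 without Pgk1 and 0.0843 without Tubb5 among the reference genes. In siMMP13 against untreated joints Alox12 was -0.0655 with array weights and -0.19 without the divergent libraries, and Cysltr1 was -0.0836 in limma, -0.0079 without Cltc and -0.0886 with total-count scaling. With a sample left out, Alox12 in siMMP13 against healthy joints ran from -0.14 to 0.0820 and Cysltr1 in siMMP13 against untreated joints from -0.17 to 0.13. The Ltb4r1 call in untreated against healthy joints was lost without healthy replicate 1, 6, 7, 8, 9, 10, 11 or 12 or untreated replicate 1, 5, 6, 7, 8 or 10. Cysltr2 in siMMP13 against healthy joints passed without healthy replicate 2, 3, 5 or 8 or siMMP13 replicate 2, 3, 4, 8 or 12, and Alox12 in siNEG against healthy joints without healthy replicate 2 or siNEG replicate 6. With the replicate number as a block the counts against healthy joints were 4 in siMMP13, 4 in siNEG and 3 in untreated joints (49.5%, 49% and 45.4% of all genes), as Cysltr2 passed in siMMP13 (-0.35, adjusted p = 0.0432) and Ltb4r1 did not in untreated joints (-0.35, adjusted p = 0.0557). Ltb4r2 was the member nearest background, since most of its values lay within the range of the negative controls, whose highest single value was 26.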
